A study of Mus musculus with 18 samples.

Results

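Collagens are the triple-helical proteins of the extracellular matrix, and their genes are described here in mouse embryoid bodies with and without thalidomide. The members were all genes whose symbol is Col, a number, a and a number, each read through the brightest of its probe sets, and 44 of the 22180 named genes on the arrays met that rule. They fell into 11 fibrillar collagens, 6 basement membrane collagens (the type IV chains) and 27 others. Embryonic stem cells of the strain C57BL/6 were grown as embryoid bodies, suspended clumps of cells that lose pluripotency and start to differentiate. From day 3 of that stage, by the labels, the cells received thalidomide at 0.25 mM or its solvent DMSO at 0.25%, and RNA was taken after 24, 48 or 72 h. The 6 groups were control and thalidomide at each time, with 3 arrays per group that the labels call biological replicates. No separate culture is named for each, so p-values measure the spread between these arrays. Whether controls had DMSO for the same hours is not settled: elsewhere the submitters describe them as unexposed, with times given since the embryoid bodies formed.

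Collagen chains wind into trimers in the endoplasmic reticulum after proline and lysine residues are hydroxylated. Fibrillar types are trimmed by proteases outside the cell and then crosslinked into banded fibres. Type IV chains keep their ends and join into the sheet-like network of basement membranes, where they meet laminins and nidogens. In the early mouse embryo, type IV collagen and laminin are the first matrix laid down, by endoderm and epithelium, and fibrillar collagens appear as mesenchyme forms.

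All values are log2 signals as deposited, so a change of 1 is a doubling of the signal, and levels of different probe sets are not set against each other because probes differ in affinity. Replicate arrays of a group correlated at 0.992 to 0.996 over the 22180 genes, and arrays of different groups at 0.973 or more. The labelled identity was visible in markers: in controls from 24 h to 72 h the mean of Nanog, a pluripotency factor, went from 9.13 to 4.82 and that of Actc1, the actin of heart muscle, from 5.01 to 9.44. Titles of all 9 control arrays and of the thalidomide arrays at 24 h carry a tag for re-analysis, unlike those of the other 6. Tag and thalidomide therefore cannot be told apart at 48 h and 72 h, nor tag and time in the thalidomide course. Differences between the effect at 24 h and a later effect hold the tag as well. At 72 h the third thalidomide array stood apart from its 2 replicates. The mean of 4 cardiac muscle markers was 7.46 on it against 8.55 and 8.68, that of 5 endothelial markers 6.49 against 7.17 and 7.44, that of 4 smooth muscle markers 6.17 against 6.71 and 6.75, and that of 7 mesenchyme markers 7.20 against 7.51 and 7.78. The list mean was higher there for 8 parietal endoderm markers, at 8.80 against 8.57 and 8.63. For 5 neural markers it was 7.66 against 7.11 and 7.23, and for 6 pluripotency markers 5.71 against 5.48 and 5.53. Gata6, of the parietal endoderm list, was lowest there (8.41 against 8.81 and 8.92), and Sox7 lay in between (5.81 against 5.94 and 5.80). Also lowest were Neurog2 (6.31 against 6.52 and 6.55), Pou5f1 (5.81 against 5.95 and 5.90) and Tdgf1 (6.15 against 6.90 and 7.14). All other members of these lists were highest there. The differences from control of Col3a1, Col4a1 and Col4a2 at 72 h are therefore given with and without that array. All other effect sizes from thalidomide arrays of 72 h include it. In whole embryoid bodies, a change in the number of cells of a type and a change in RNA per cell cannot be told apart.

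Of the 11 fibrillar collagens, 6 rose in the controls over the course of differentiation, with the largest changes in Col3a1, Col2a1, Col11a1 and Col5a1. These 6 passed from 24 h to 72 h at an adjusted p under 0.05 (limma, Benjamini-Hochberg over all 22180 genes), the other 5 did not, and none fell. Over all collagens 11 of 44 passed, each of them higher at 72 h. Of all genes 27.5% passed in this comparison, 13.1% as higher and 14.3% as lower. At an unadjusted p under 0.05 there were 16 collagens, where 37.5% of all genes were. All arrays of 72 h lay above all arrays of 24 h for 12 collagens and below for 5, as for 18.6% and 23.3% of all genes. The median change of the 11 fibrillar genes was 0.27, against -0.04 for all genes. Of all 44 collagens 19 lay above 0, where 43.3% of all genes did.

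Col3a1 encodes the chain of type III collagen, which forms fine fibres in vessel walls and young connective tissue. Its control arrays read 5.58, 6.00 and 5.47 at 24 h, 5.69, 6.12 and 5.81 at 48 h and 7.60, 7.83 and 8.29 at 72 h. The first 2 times overlapped, and every array of 72 h lay above both. The mean rose by 2.22 ± 0.24 (SE, n = 3) from 24 h to 72 h, a 4.66-fold signal (limma adjusted p = 2.07e-06), and the step from 48 h to 72 h was 2.03. With thalidomide the arrays read 5.72, 5.63 and 5.52 at 24 h, 6.12, 6.06 and 6.04 at 48 h and 7.40, 7.10 and 6.19 at 72 h. That course also rose, by 1.27 ± 0.24 (limma adjusted p = 0.000717).

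The stretches before the starts of Col3a1, Col5a1 and Col11a1, all 3 higher at 72 h in both courses, are shown to set their base composition side by side. They are the 250 bases before the annotated start of the transcript, from RefSeq's promoter windows on GRCm38.p6, 5′ to 3′ on the gene's strand. Capitals mark the motifs searched on both strands: CCAAT (bound by the factor NF-Y), TATAAA (the TATA box), GGGCGG (the GC box bound by Sp1) and CAGACA (which holds a core that Smad proteins bind). No 2 motifs overlapped in the stretches printed.
Col3a1, chr1:45311288-45311537, plus strand: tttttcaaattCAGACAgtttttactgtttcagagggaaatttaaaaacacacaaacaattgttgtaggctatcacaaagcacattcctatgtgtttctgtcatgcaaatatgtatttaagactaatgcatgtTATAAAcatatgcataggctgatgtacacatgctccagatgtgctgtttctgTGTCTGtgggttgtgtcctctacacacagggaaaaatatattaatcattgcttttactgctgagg
Col5a1, chr2:27886175-27886424, plus strand: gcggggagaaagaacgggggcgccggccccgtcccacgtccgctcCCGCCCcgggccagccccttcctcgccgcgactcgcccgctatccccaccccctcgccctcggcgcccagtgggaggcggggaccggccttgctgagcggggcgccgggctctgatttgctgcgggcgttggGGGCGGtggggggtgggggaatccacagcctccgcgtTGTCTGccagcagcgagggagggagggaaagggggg
Col11a1, chr3:114030290-114030539, plus strand: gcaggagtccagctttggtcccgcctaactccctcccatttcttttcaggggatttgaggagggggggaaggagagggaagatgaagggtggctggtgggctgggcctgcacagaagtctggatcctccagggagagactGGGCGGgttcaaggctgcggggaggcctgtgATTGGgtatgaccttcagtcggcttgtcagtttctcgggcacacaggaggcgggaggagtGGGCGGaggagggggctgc
Col3a1 had 35.2% G and C in this stretch, TATAAA once and CAGACA once on each strand. Col5a1 had 76.4%, GGGCGG once on each strand and CAGACA once, on the minus strand. Col11a1 had 62.4%, GGGCGG 2 times and CCAAT once, on the minus strand. The median over all 32851 windows was 52.4% G and C, so Col3a1 lay below it and the other two above. RefSeq windows matched 35 of the 44 collagen genes, with 38 windows. GGGCGG was present in 57.9% of those windows and in 32.7% of all windows. The shares were 34.2% and 33.8% for CCAAT, 13.2% and 12.4% for TATAAA, and 23.7% and 17.1% for CAGACA. These are matches of letters and no measure of binding. Most collagen windows lay above the median of 52.4% G and C. The windows were not matched for it, so its part in the GGGCGG shares was not tested.

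Col2a1, the chain of type II collagen, is the main collagen of cartilage and is also made early by notochord and neural epithelium. Its control arrays went from 6.22, 6.34 and 6.11 at 24 h through 6.99, 6.93 and 6.91 at 48 h to 7.85, 7.80 and 7.57 at 72 h. No 2 times overlapped. The rise was 1.52 ± 0.09 (SE, n = 3, limma adjusted p = 3.72e-09), with 0.72 of it in the first step and 0.80 in the second. With thalidomide the arrays read 6.44, 6.30 and 6.20, then 6.78, 6.83 and 6.94, then 7.92, 7.72 and 7.73. The rise there was 1.48 ± 0.09 (limma adjusted p = 9.96e-09), and the difference between the courses was -0.04 with a 95% interval of -0.31 to 0.23. The mean of 5 cartilage markers (Sox9, Acan, Matn1, Comp and Snorc) lay between 5.24 and 5.30 on the control arrays of 24 h and between 5.21 and 5.37 on those of 72 h, with 1 member called higher and 1 lower.

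Col11a1, whose chain sits inside type II collagen fibrils and sets their width, went from 5.18, 5.15 and 5.36 at 24 h to 6.29, 6.52 and 6.20 at 72 h in the controls. The groups did not overlap, and the rise was 1.11 ± 0.09 (SE, n = 3, limma adjusted p = 2.06e-07). With thalidomide it went from 5.35, 5.41 and 5.31 to 6.22, 6.33 and 6.27, a rise of 0.92 ± 0.09 (limma adjusted p = 2.34e-06). Col11a2, which encodes a partner chain of type XI, did not pass in either course, with changes of -0.11 in controls and -0.23 with thalidomide.

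Col5a1 encodes a chain of type V collagen, which starts type I fibrils. Its control arrays read 6.29, 6.45 and 6.17 at 24 h and 7.01, 7.15 and 7.28 at 72 h, without overlap. The rise was 0.84 ± 0.12 (SE, n = 3, limma adjusted p = 3.72e-05). With thalidomide the arrays read 6.67, 6.50 and 6.22 at 24 h and 7.08, 6.95 and 6.68 at 72 h, a rise of 0.44 ± 0.12 (limma adjusted p = 0.0107). The second, dimmer probe set of Col5a1 changed by -0.23 in controls (limma adjusted p = 0.0972 among all probe sets), so the 2 probe sets disagree. The call with thalidomide was also lost without the third thalidomide array of 24 h or the first of 72 h (adjusted p up to 0.0618). Averaging the 2 probe sets lowered the rise with thalidomide to 0.11 (adjusted p = 0.39), and that in controls to 0.31 (adjusted p = 0.0114).

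Col5a2, the other common chain of type V, rose by 0.32 ± 0.10 in controls (SE, n = 3, limma adjusted p = 0.0196), from 5.13, 5.30 and 5.16 to 5.33, 5.63 and 5.57. Col1a1, a chain of type I collagen, the main collagen of bone and skin, rose by 0.25 ± 0.09 (limma adjusted p = 0.046), from 6.02, 6.13 and 5.81 to 6.26, 6.30 and 6.16. Its partner Col1a2 changed by 0.27 and did not pass (limma adjusted p = 0.0969). Leaving out any of 4 single arrays ended each call (the first or the third control array of 24 h for both, the second or the third of 72 h for Col5a2, the first or second of 72 h for Col1a1), with adjusted p up to 0.0933 for Col5a2 and 0.212 for Col1a1. The other 4 fibrillar genes, Col5a3, Col11a2, Col24a1 and Col27a1, changed by between -0.21 and -0.08 in controls and did not pass.

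**Figure D1:**
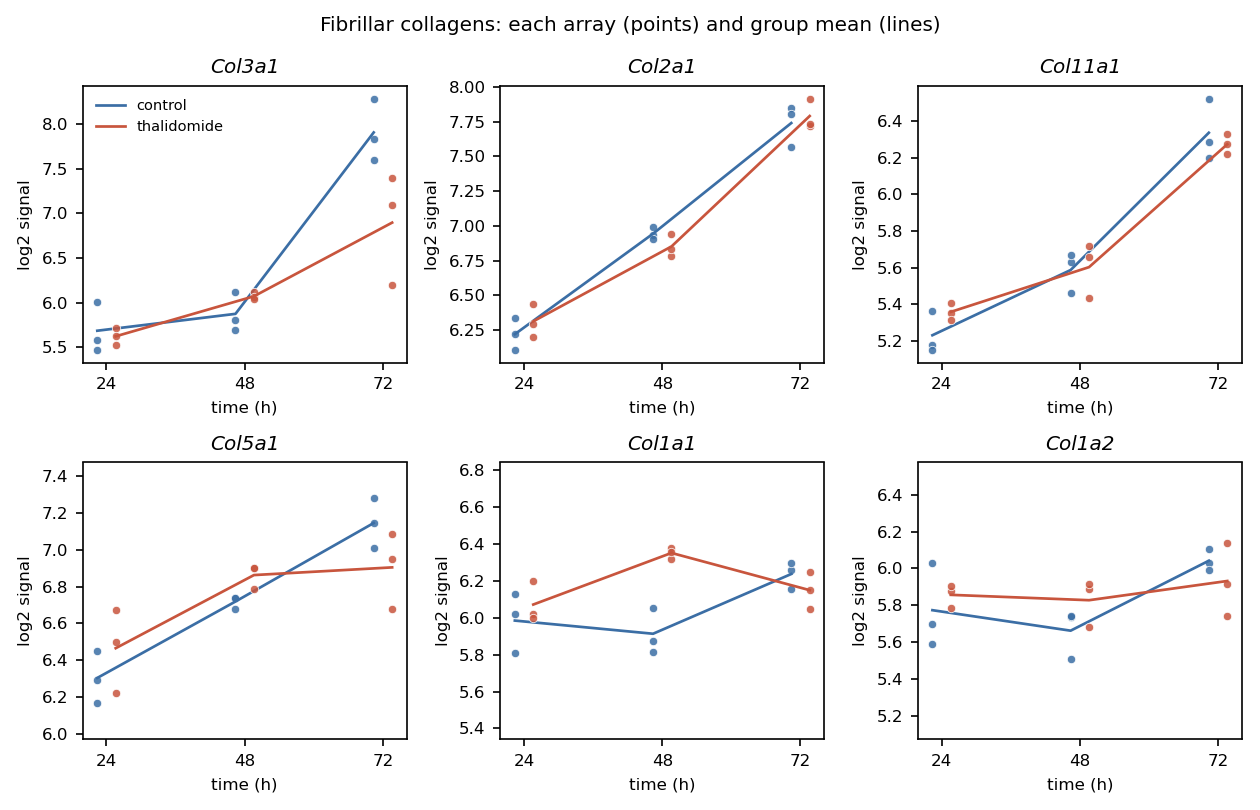
Log2 signal of 6 fibrillar collagens on each of the 18 arrays (points) against time in hours, with lines through the group means of control and thalidomide. Col3a1 stands near 5.5 to 6 until 48 h in both treatments, and at 72 h its thalidomide arrays (6.19 to 7.40) lie below the control arrays (7.60 to 8.29).

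With thalidomide, 9 collagens rose and 3 fell from 24 h to 72 h, where 25.1% of all genes passed, 14.4% as higher and 10.6% as lower. The fibrillar calls were Col3a1, Col2a1, Col11a1 and Col5a1. Col1a2 changed by 0.08 in its brightest probe set, and a second, dimmer one rose by 0.34 (limma adjusted p = 0.0293 among all probe sets). At an unadjusted p under 0.05 there were 17 collagens, where 36.1% of all genes were, and 16 of 44 lay above 0, where 45.2% did. The arrays of 72 h lay all above those of 24 h for 10 collagens and all below for 6, as for 19.5% and 19% of all genes. The course with thalidomide was smaller for Col3a1 by 0.95 ± 0.33 (SE), with a 95% interval of the difference from -1.65 to -0.24, and the difference did not pass over all genes (limma adjusted p = 0.194). For Col5a1 the difference was -0.40 ± 0.16 (limma adjusted p = 0.27). Leaving out the first thalidomide array of 72 h lowered the count of collagens called from 12 to 7. In this course the tag for re-analysis and time cannot be told apart.

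**Figure D2:**
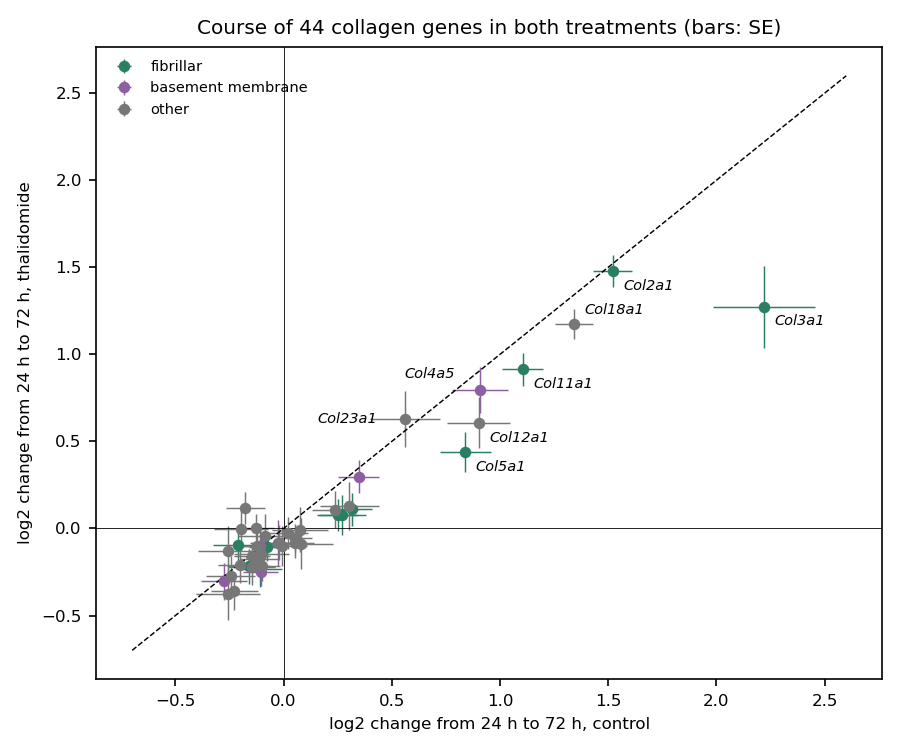
Log2 change from 24 h to 72 h of the 44 collagen genes in controls (x axis) and with thalidomide (y axis), with standard errors as bars and the line of equal change dashed. Most genes sit near 0 on both axes, Col2a1 near the line at 1.52 and 1.48, and Col3a1 furthest below it at 2.22 and 1.27.

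Of the 6 type IV genes, Col4a5 and Col4a6 rose in both courses, Col4a3 and Col4a4 fell with thalidomide, and Col4a1 and Col4a2, the chains of the common basement membrane network, did not pass in either course. Col4a1 changed by -0.02 ± 0.13 (SE, n = 3) in controls and Col4a2 by -0.11 ± 0.13, with limma adjusted p = 0.919 and limma adjusted p = 0.564. The 2 genes lie head to head on chromosome 8 and share a promoter region. On GRCm38.p6, RefSeq starts Col4a1 on the minus strand at base 11312826 and Col4a2 on the plus strand at base 11312805, so their first bases overlap by the 22 bases shown here, with the GC box GGGCGG in capitals.
Col4a1 and Col4a2, chr8:11312805-11312826, plus strand: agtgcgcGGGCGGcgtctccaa
Within a group of 3 arrays, Col4a1 and Col4a2 ranked the arrays in the same order in 4 of 6 groups. The order was the same in 1 of 6 groups for Col4a3 and Col4a4, in 1 of 6 for Col4a5 and Col4a6, and in 2 of 6 for Col1a1 and Col1a2. Col4a1 and Col4a2 lay in the brightest of 4 equal bins of mean signal, and the other genes of these pairs in dimmer bins. The rate for unrelated pairs was not measured, and the part of the shared promoter was not tested.

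Col4a5 encodes a chain of the network found in kidney and in smooth muscle basement membranes. Its control arrays read 5.86, 5.98 and 5.41 at 24 h, 6.22, 6.29 and 5.94 at 48 h and 6.63, 6.65 and 6.68 at 72 h. The groups of 24 h and 72 h did not overlap, and the rise was 0.91 ± 0.13 (SE, n = 3, limma adjusted p = 5.44e-05). With thalidomide the arrays went from 5.74, 5.83 and 5.42 to 6.50, 6.52 and 6.36, a rise of 0.79 ± 0.13 (limma adjusted p = 0.000248).

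Col4a6, its neighbour on the X chromosome with a start 1343 bases away on the other strand, went from 5.66, 5.57 and 5.47 to 5.82, 6.05 and 5.88 in controls. It rose by 0.35 ± 0.09 (SE, n = 3, limma adjusted p = 0.01), and missed the threshold without the second control array of 72 h (adjusted p = 0.0568). With thalidomide it rose by 0.30 ± 0.09 (limma adjusted p = 0.0272), a call lost without the first or the third thalidomide array of 24 h or the first or second of 72 h (adjusted p up to 0.119). The mean of 4 smooth muscle markers was 5.61 to 5.82 on the control arrays of 24 h and 6.93 to 6.94 on those of 72 h. Most of that came from Acta2, whose group mean went from 6.42 to 10.98, and 2 of the 4 passed (Acta2 and Tagln). Cnn1 changed by 0.27 and Myh11 by -0.23 without passing, the median change of the list was 0.33, and its part in the result was not tested.

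Col4a3 and Col4a4, chains of the kidney glomerular network, fell with thalidomide between 24 h and 72 h. Col4a3 went from 5.56, 5.60 and 5.29 to 5.16, 5.28 and 5.26, by -0.25 ± 0.08 (SE, n = 3, limma adjusted p = 0.0337). Col4a4 went from 5.48, 5.18 and 5.07 to 4.96, 5.03 and 4.83, by -0.30 ± 0.11 (limma adjusted p = 0.0457). In controls the changes were -0.11 and -0.27 (limma adjusted p = 0.377 and limma adjusted p = 0.0667). No type IV gene passed in the difference between the courses. Col4a3 was lost without the first or second thalidomide array of 24 h or the first or the third of 72 h (adjusted p up to 0.138), and passed in 5 of 13 alternative analyses. Col4a4 was lost without any of these arrays or the second of 72 h (adjusted p up to 0.227), and passed in 3 of 13.

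Among the 27 other collagens, Col18a1, Col12a1 and Col23a1 rose in both courses. Col18a1 encodes type XVIII collagen, a basement membrane proteoglycan whose end fragment is endostatin. Its control arrays went from 6.38, 6.20 and 6.45 at 24 h through 7.12, 7.01 and 6.93 at 48 h to 7.54, 7.72 and 7.80 at 72 h, with no overlap between times. The rise was 1.34 ± 0.09 (SE, n = 3, limma adjusted p = 1.01e-08). With thalidomide it went from 6.23, 6.37 and 6.47 through 7.10, 7.14 and 7.03 to 7.48, 7.59 and 7.51, a rise of 1.17 ± 0.09 (limma adjusted p = 7.14e-08).

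Col12a1, whose protein decorates type I fibrils, rose by 0.90 ± 0.15 in controls (SE, n = 3, limma adjusted p = 0.000187), from 4.45, 4.75 and 4.46 to 5.38, 5.37 and 5.62. With thalidomide its arrays of 72 h read 5.56, 5.35 and 4.93, and the rise was 0.61 ± 0.15 (limma adjusted p = 0.00592). Col23a1, a transmembrane collagen, rose by 0.56 ± 0.16 in controls (limma adjusted p = 0.0156) and by 0.63 ± 0.16 with thalidomide (limma adjusted p = 0.00887). Its control arrays went from 7.37, 7.26 and 6.95 to 7.87, 7.80 and 7.59. Its thalidomide arrays of 72 h read 8.24, 7.84 and 7.49, the widest spread among its groups. The call in controls was lost without the third control array of 24 h or the first of 72 h (adjusted p up to 0.0795), and that with thalidomide without the first thalidomide array of 72 h (adjusted p = 0.0557).

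Col19a1, a fibril-associated collagen, fell with thalidomide by -0.36 ± 0.11 (SE, n = 3, limma adjusted p = 0.0216), from 4.92, 4.96 and 4.87 to 4.60, 4.58 and 4.49, without overlap. That call was lost without the first or second thalidomide array of 24 h or the third of 72 h (adjusted p up to 0.0732). The change in controls was -0.23 and did not pass (limma adjusted p = 0.136). The other 23 genes of this class passed in neither course. They include all 6 chains of type VI, the beaded-filament collagen of pericellular matrix, the cartilage collagens of types IX and X, and types XIV, XVI, XVII and XXV. Col28a1, of the unclassified type XXVIII, changed by 0.08 in controls and -0.09 with thalidomide.

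The control course can be split into its steps. From 24 h to 48 h, 4 collagens rose (Col2a1, Col18a1, Col5a1 and Col11a1) and Col8a1, a short-chain network collagen of vessel walls and cornea, fell by -0.36 ± 0.11 (SE, n = 3, limma adjusted p = 0.0328), where 13.6% of all genes passed, 6.93% as higher and 6.7% as lower. In that step 16 of 44 collagens lay above 0, where 45.8% of all genes did, and 10 had an unadjusted p under 0.05, where 26.5% did. The later arrays lay all above the earlier ones for 4 collagens and all below for 6, as for 15.2% and 17.5% of all genes. From 48 h to 72 h, 8 collagens rose and none fell, where 6.53% of all genes passed, 3.62% as higher and 2.9% as lower. Here 31 of 44 lay above 0, where 45.7% of all genes did, and 12 had an unadjusted p under 0.05, where 19.1% did. The later arrays lay all above for 13 collagens and all below for 2, as for 12.4% and 14.3% of all genes. Those 8 were Col3a1, Col2a1, Col11a1, Col18a1, Col12a1, Col4a5, Col5a1 and Col1a1. The count of 5 in the first step became 2 without the first control array of 24 h or the first of 48 h. The count of 8 in the second became 4 without the third control array of 72 h, and 5 without its second or without the first or the third control array of 48 h. Single arrays thus decided several step calls: those of Col5a1 in both steps, Col11a1 and Col8a1 in the first, and Col4a5, Col12a1 and Col1a1 in the second were each lost without at least 2 different arrays. Col8a1 was lost without the first or the second control array of 24 h or the first or the third of 48 h (adjusted p up to 0.158).

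**Figure D3:**
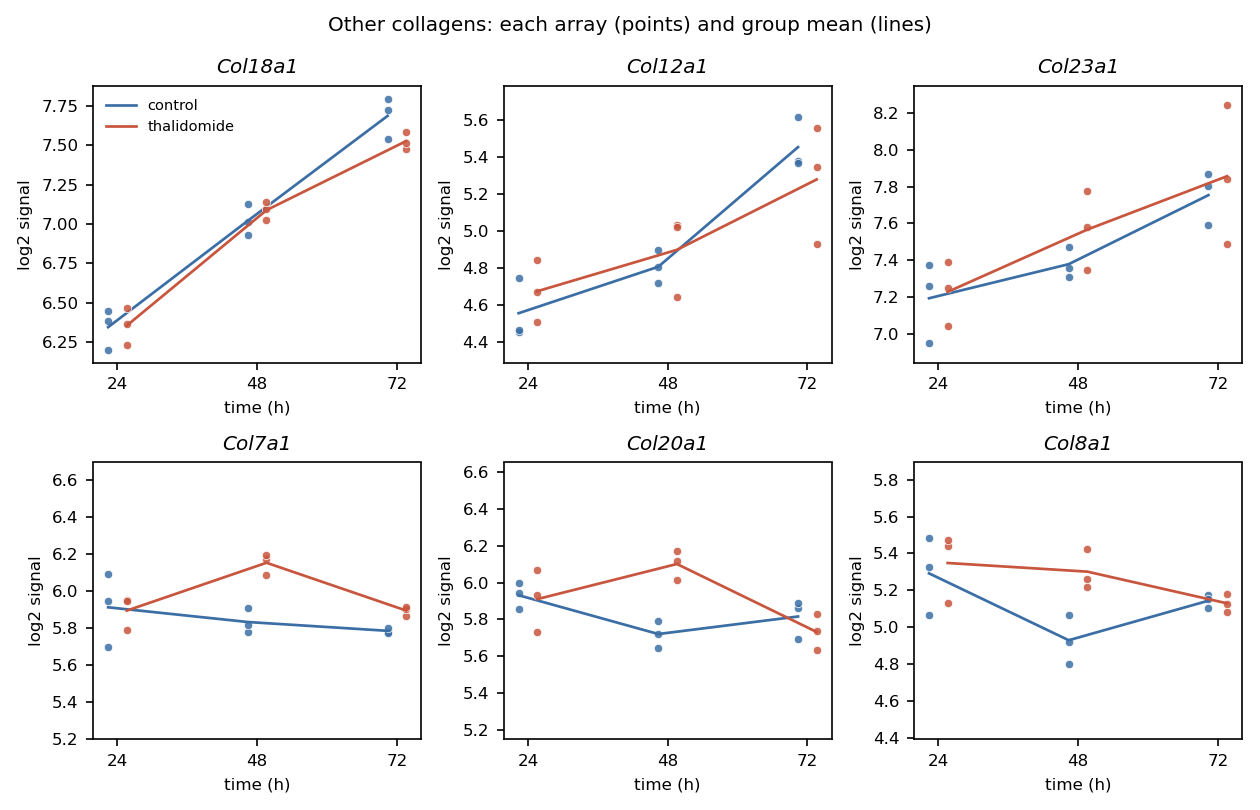
Log2 signal of 6 other collagens on each array (points) against time in hours, with lines through the group means of control and thalidomide. Col18a1 climbs in both treatments from about 6.3 to above 7.4, whereas the Col7a1, Col20a1 and Col8a1 arrays of thalidomide lie above those of control at 48 h.

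Genes that modify, cut, crosslink or bind collagen were read in a list of 78, of which 71 were measured. From 24 h to 72 h in controls 28 of the 71 rose and 6 fell, where 13.1% of all genes were called higher and 14.3% lower. With thalidomide 27 rose and 8 fell, where the shares were 14.4% and 10.6%. Counts by role in controls are read against the same shares. Among the enzymes of proline and lysine modification, 7 of 13 rose in controls, with P4ha3, a prolyl hydroxylase subunit, at 2.01 ± 0.19 (SE, n = 3, limma adjusted p = 5.24e-07). None of those 13 fell. Among the proteins that cut off propeptides, 3 of 7 rose and 2 fell, with Bmp1, the C-proteinase, at 0.94 ± 0.07 (limma adjusted p = 5.69e-08). Pcolce2, an enhancer of that step, fell by 1.14 (limma adjusted p = 2.08e-06), and Tll2, a related proteinase, fell by 0.47 (limma adjusted p = 0.0032). Creb3l1, a regulator of secretion, fell by 0.54 and the collagenase Mmp8 by 0.37.

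Of the crosslinking enzymes 2 of 5 rose, Loxl1, a lysyl oxidase, by 1.12 ± 0.08 (SE, n = 3, limma adjusted p = 4.68e-08) and Pxdn, which crosslinks type IV collagen, by 0.63 ± 0.07 (limma adjusted p = 4.55e-06). Of the fibril regulators 2 of 8 rose, Lum by 2.81 ± 0.28 (limma adjusted p = 1.15e-06) and Dcn by 1.21 ± 0.13 (limma adjusted p = 3.44e-06), both small proteoglycans on fibril surfaces, and Thbs2 fell by 0.43 (limma adjusted p = 0.00489). Collagen receptors rose in 3 of 6 cases (Itga1, Itgb1 and Ddr2). Of the basement membrane partners Lama5 fell by 0.20 (limma adjusted p = 0.0276) and 5 of 14 rose, led by Nid1, a nidogen, at 1.25 ± 0.09 (limma adjusted p = 4.68e-08) and Lama4, a laminin of vessels and muscle, at 1.17 ± 0.14 (limma adjusted p = 5.40e-06).

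After 24 h of thalidomide no collagen passed the test against control, where 6.86% of all genes did, 1.42% as higher and 5.43% as lower. At an unadjusted p under 0.05 there were 3 collagens (Col4a1, Col4a2 and Col6a2), where 21.2% of all genes were. The median difference of the 44 collagens was 0.05, against -0.01 for all genes, and 31 of 44 lay above 0, where 48.5% of all genes did. Direction depended on brightness when the genes were cut into equal bins of mean signal. The bin with 26 collagens had 61.3% of its genes above 0, with medians of 0.04 for collagens and for all its genes. The bin with 14 had 37.6%, with medians of 0.05 and -0.05. The count above 0 became 23 without control replicate 3 and 37 without control replicate 2.

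Col4a1 and Col4a2 were the 2 collagens whose thalidomide arrays all lay above the control arrays at 24 h, a pattern that 9.23% of all genes showed. Col4a1 read 8.59, 8.64 and 8.70 in controls and 8.94, 8.93 and 9.14 with thalidomide. Col4a2 read 8.19, 8.20 and 8.20 against 8.56, 8.46 and 8.69. The differences were 0.36 ± 0.13 and 0.38 ± 0.13 (SE, n = 3), and neither passed over all genes (limma adjusted p = 0.114 and limma adjusted p = 0.0854). Col4a2 did pass in 3 of 14 alternative analyses, at adjusted p = 0.0489 after cyclic loess between arrays, 0.035 among the brighter genes and 0.0492 with a trended, robust prior. These 3 did not call Col4a1 (adjusted p = 0.0632, 0.0502 and 0.0853).

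Of 14 partners of type IV collagen in basement membranes, 6 rose at 24 h, 8 did not pass and none fell, where 1.42% of all genes were called higher and 5.43% lower. The 6 include all 3 chains of laminin-111. Lamc1, its gamma chain, read 9.57, 9.71 and 9.76 in controls and 10.14, 10.13 and 10.28 with thalidomide, a rise of 0.50 ± 0.12 (SE, n = 3, limma adjusted p = 0.0162). Lama1, the alpha chain, read 9.38, 9.49 and 9.50 against 9.85, 9.92 and 10.11 and rose by 0.50 ± 0.13 (limma adjusted p = 0.0338). Lamb1, the beta chain, rose by 0.32 ± 0.08 (limma adjusted p = 0.0219).

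Nid1 and Nid2, the nidogens that link laminin to type IV collagen, rose by 0.37 ± 0.09 (SE, n = 3, limma adjusted p = 0.0247) and 0.31 ± 0.07 (limma adjusted p = 0.0128). Agrn, a proteoglycan, rose by 0.31 ± 0.07 (limma adjusted p = 0.0101). In alternative analyses Agrn passed in 13 of 14, Nid2 in 12, Lamc1 in 11, Lamb1 in 9, Nid1 in 8 and Lama1 in 6. The 8 markers of parietal endoderm, which hold those 3 laminin chains, had a mean of 8.64 to 8.67 on the control arrays and 8.80 to 8.90 on the thalidomide arrays. The 5 other members of that list (Sparc, Sox7, Gata6, Dab2 and Thbd) did not pass, and the part of this cell type in the result was not tested.

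Outside that list, Ppib, a folding enzyme of procollagen, rose at 24 h by 0.26 ± 0.07 (SE, n = 3, limma adjusted p = 0.0414). Pcolce2 read 6.78, 6.66 and 6.69 in controls and 6.41, 6.30 and 6.16 with thalidomide, and fell by 0.42 (limma adjusted p = 0.0476). Both passed in 5 of 14 alternative analyses. No other gene of the 71 passed. Among the remaining collagens, Col6a2 had every thalidomide array (5.67, 5.63 and 5.61) below every control array (5.88, 6.04 and 5.74), a pattern that 15.9% of all genes showed, and its difference was -0.25 ± 0.09 (limma adjusted p = 0.119). The fibrillar gene with the smallest p, Col27a1, differed by 0.17 ± 0.10 (limma adjusted p = 0.345).

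**Figure D4:**
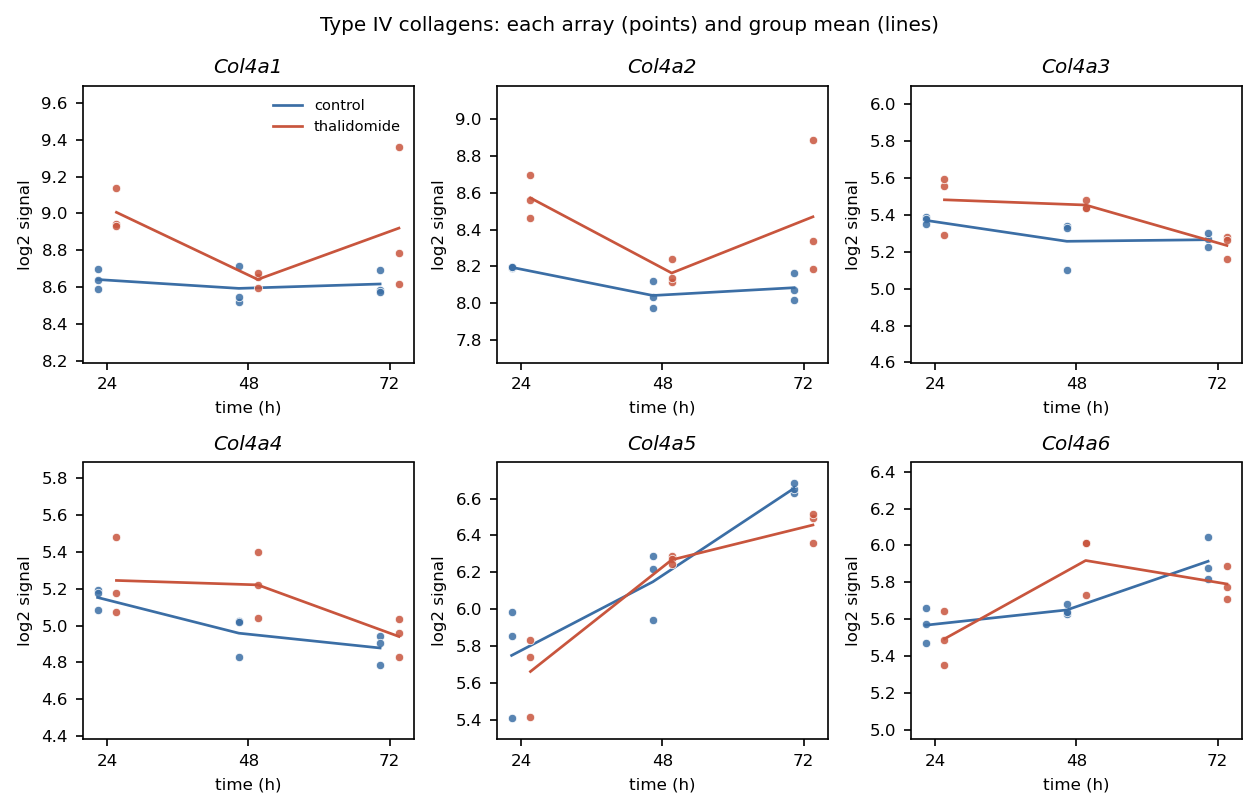
Log2 signal of the 6 type IV collagen genes on each array (points) against time in hours, with lines through the group means of control and thalidomide. For Col4a1 and Col4a2 the thalidomide arrays lie above the control arrays at 24 h and meet them at 48 h, and at 72 h 1 thalidomide array (9.36 and 8.88) stands above all others.

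After 48 h of thalidomide 3 collagens passed, each higher than in control: Col1a1, Col20a1 and Col7a1. Of all genes 6.08% passed, 1.85% as higher and 4.23% as lower. A further 8 collagens had an unadjusted p under 0.05 without passing, and each of those 8 was higher with thalidomide. That makes 11 of 44 at this level, where 23.3% of all genes were. No type IV gene passed.

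Col1a1 read 5.82, 6.05 and 5.87 in controls and 6.32, 6.38 and 6.36 with thalidomide. The groups did not overlap, and the rise was 0.44 ± 0.09 (SE, n = 3), a 1.36-fold signal (limma adjusted p = 0.0107). Col1a2, whose chain pairs with it in type I collagen, read 5.51, 5.73 and 5.74 against 5.89, 5.92 and 5.68. Those groups overlapped and the difference of 0.17 did not pass (limma adjusted p = 0.41). A second, dimmer probe set of Col1a2 differed by -0.16 (limma adjusted p = 0.368 among all probe sets), so the 2 disagree in sign.

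Col20a1, a fibril-associated collagen, read 5.65, 5.79 and 5.72 in controls and 6.01, 6.12 and 6.17 with thalidomide, and rose by 0.38 ± 0.09 (SE, n = 3, limma adjusted p = 0.0201). Col7a1, the chain of the anchoring fibrils beneath epithelia, read 5.78, 5.91 and 5.81 against 6.09, 6.18 and 6.20 and rose by 0.32 ± 0.08 (limma adjusted p = 0.0328). Neither pair of groups overlapped. Col8a1 read 4.80, 5.06 and 4.92 against 5.22, 5.26 and 5.42 and just missed the threshold, at 0.37 ± 0.11 (limma adjusted p = 0.0509). Its control mean at 48 h was the lowest of its 6 groups. So were those of Col1a1 (5.91) and Col20a1 (5.72), but not that of Col7a1. The control step to 72 h and the differences between the effects at 48 h and 72 h use these control arrays too.

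Without the first control array of 48 h none of the 3 passed (adjusted p = 0.0505 for Col1a1, 0.0775 for Col20a1 and 0.113 for Col7a1), and 1 passed without the third control array or without the second thalidomide array. Col20a1 was also lost without the third control array or the second or the third thalidomide array (adjusted p up to 0.0735 there), and Col7a1 without any single array but the first thalidomide one. Over 14 alternative analyses Col1a1 passed in 12, Col20a1 in 9 and Col7a1 in 7.

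Small differences in the same direction ran through the family at 48 h: 41 of 44 collagens lay above 0, where 51.2% of all genes did, and the median was 0.13 against 0.01 for all genes. All thalidomide arrays lay above all control arrays for 12 collagens and below for none, patterns shown by 12.3% and 16.9% of all genes. The direction of change depended on brightness in the whole table. When the 22180 genes were cut into 4 equal bins of mean signal, 68.2% of genes in the second dimmest bin lay above 0 at 48 h and 37.9% of those in the third. Those bins held 26 and 14 collagens, with medians of 0.12 and 0.15, where all genes of the bins had medians of 0.08 and -0.05. The 3 collagens below 0 were Col2a1, Col24a1 and Col6a2. Under the other settings between 37 and 42 of 44 lay above 0, or 16 of 17 among the brighter genes.

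Of the 5 cartilage markers 2 rose at 48 h (Acan and Snorc), both dim probe sets, and the list means were 5.38 to 5.46 against 5.21 to 5.32 in controls. The other 3 did not pass, with differences of -0.17 for Sox9, the lineage factor, -0.04 for Matn1 and 0.15 for Comp. The mean of the 4 cardiac markers was 6.38 to 6.74 with thalidomide and 6.67 to 7.20 in controls, and only Myl7 passed, as lower. Without passing, Actc1 and Tnnt2 had lower means (5.52 against 5.89 and 7.82 against 8.29) and Nkx2-5 a higher one (7.40 against 7.15). The part of either cell type in the collagen differences was not tested. Of the 71 genes acting on collagen, none rose and 2 fell, no larger a share than the 1.85% and 4.23% of all genes called higher and lower. Loxl1 read 6.35, 6.36 and 6.23 in controls and 5.70, 5.97 and 5.82 with thalidomide, without overlap, and fell by 0.48 ± 0.08 (SE, n = 3, limma adjusted p = 0.00457), a call that held in 13 of 14 alternative analyses. P3h2, a prolyl 3-hydroxylase that acts on type IV collagen, fell by 0.30 ± 0.08 (limma adjusted p = 0.0339), and passed in 5 of 14.

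**Figure D5:**
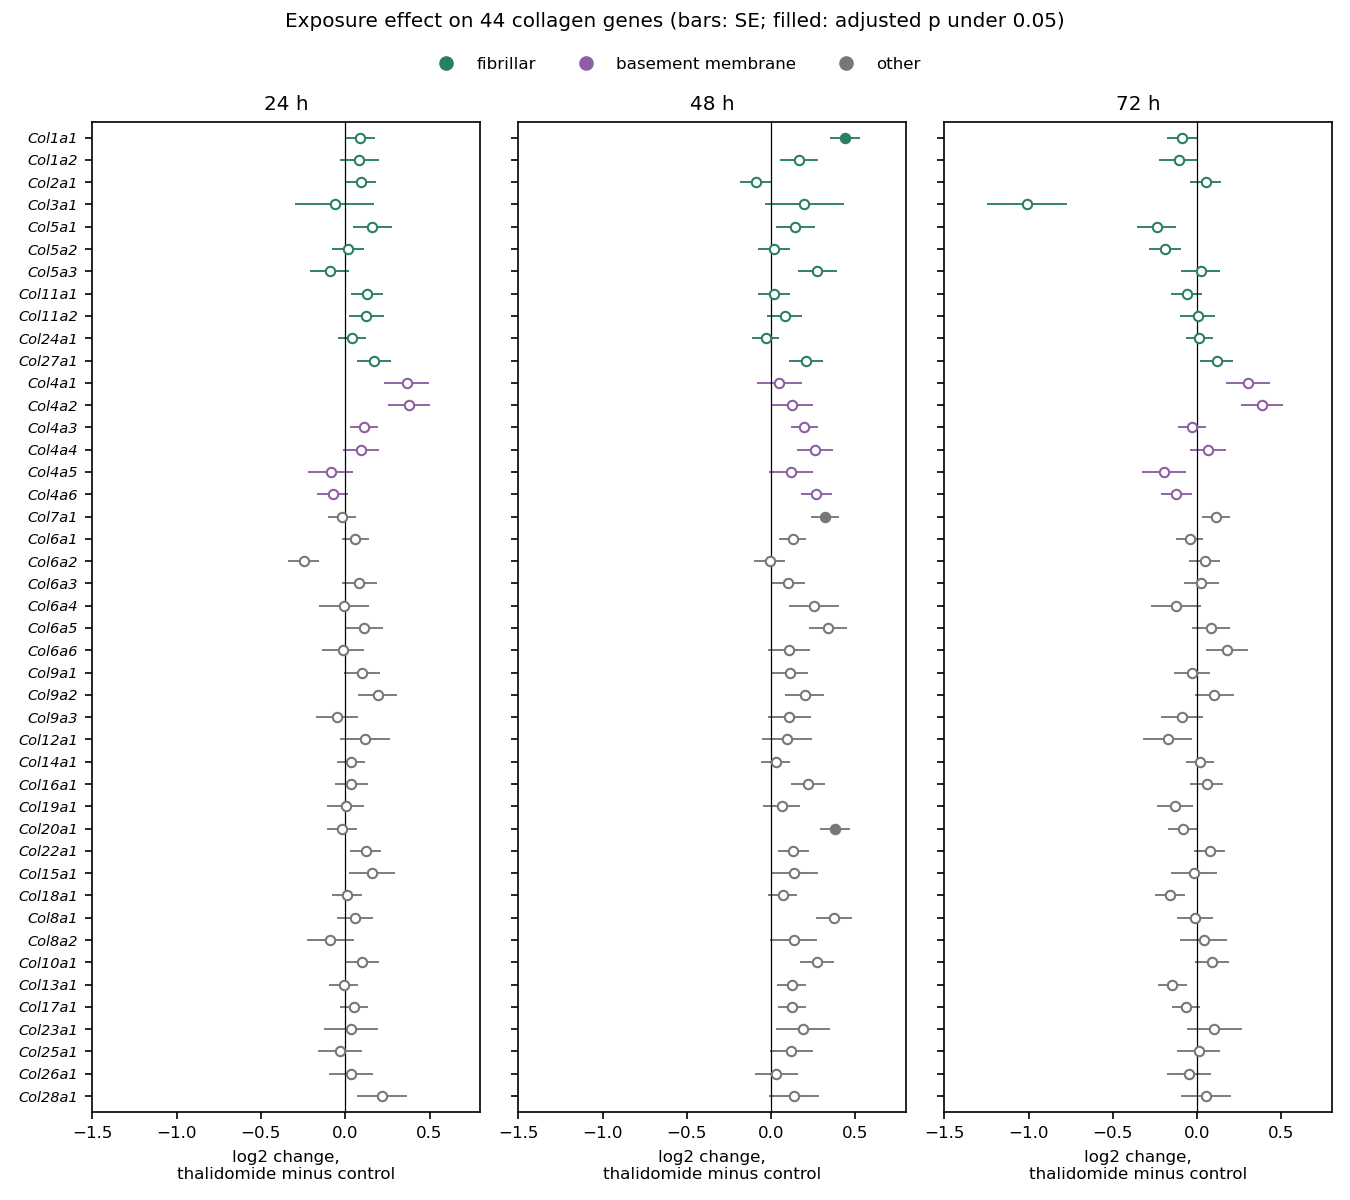
Difference between thalidomide and control in log2 units for each of the 44 collagen genes at 24, 48 and 72 h, with standard errors as bars, filled where the adjusted p was under 0.05 and coloured by class. At 48 h 41 of 44 points lie right of 0 and 3 are filled, and at 72 h Col3a1 stands alone at -1.01.

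After 72 h of thalidomide no collagen passed the test, and of all genes 2, or 0.00902%, did. At an unadjusted p under 0.05 there were 3 collagens (Col3a1, Col4a2 and Col4a1), where 9.12% of all genes were. The collagens split evenly, 22 above 0 and 22 below, where 51.3% of all genes lay above, with a median of -0.01 against 0.00 for all genes. Col3a1 read 7.60, 7.83 and 8.29 in controls and 7.40, 7.10 and 6.19 with thalidomide. All thalidomide arrays lay below all control arrays, a pattern that 7.51% of all genes showed, and the difference was -1.01 ± 0.24 (SE, n = 3), with a 95% interval from -1.51 to -0.51 (limma adjusted p = 0.138).

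The size and the call depended on single arrays. Without the third thalidomide array the Col3a1 difference was -0.66 ± 0.18 (limma adjusted p = 0.575), and without the first it was -1.26 ± 0.23 and passed (limma adjusted p = 0.0339). Mesenchyme markers on the third array had a mean of 7.20, against 7.51 and 7.78 on the other thalidomide arrays and 7.65 to 7.77 in controls. The endothelial, cardiac and smooth muscle means of that array were low as well. Its neural and pluripotency means were high, although Neurog2, Pou5f1 and Tdgf1 were lowest there. The part of these cells in the Col3a1 difference was not tested. Col3a1 stayed below control without that array, in the 2 arrays that read 7.40 and 7.10.

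Col4a2 and Col4a1 went the other way on the same array. Col4a2 read 8.02, 8.07 and 8.16 in controls and 8.18, 8.34 and 8.88 with thalidomide, where all arrays lay above, as for 7.27% of all genes, and differed by 0.38 ± 0.13 (SE, n = 3, limma adjusted p = 0.321). Col4a1 read 8.59, 8.57 and 8.69 against 8.62, 8.79 and 9.36, with overlap, and differed by 0.30 ± 0.13 (limma adjusted p = 0.501). Without the third array the differences were 0.18 and 0.08. Lama1 had the same order, with 9.45, 9.63 and 10.20 on the thalidomide arrays against 9.21, 9.26 and 9.11 in controls (difference 0.57 ± 0.13, limma adjusted p = 0.148). The mean of the parietal endoderm list, which holds Lama1, was highest on that array, although Gata6 of that list was lowest there. The neural and pluripotency means were highest there as well, and the part of these cells was not tested. Of the other collagens, Col7a1 lay above control on all thalidomide arrays (5.87, 5.90 and 5.91 against 5.78, 5.77 and 5.80) and Col4a5 below on all of them (6.50, 6.52 and 6.36 against 6.63, 6.65 and 6.68), and neither passed.

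No gene of the 71 that act on collagen passed at 72 h. P4ha3 read 6.56, 6.96 and 7.09 in controls and 6.14, 6.50 and 5.47 with thalidomide, a difference of -0.83 ± 0.19 (SE, n = 3, limma adjusted p = 0.13). Loxl1 read 6.36, 6.26 and 6.39 against 6.01, 6.15 and 5.94, without overlap, and differed by -0.31 ± 0.08 (limma adjusted p = 0.216). Lum read 6.34, 6.23 and 7.06 against 6.61, 5.67 and 5.06, with overlap, and differed by -0.76 ± 0.28 (limma adjusted p = 0.393). The third array was the lowest of its group for all 3 genes.

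Differences between the effects at 2 times were tested as such, and no collagen passed in any of the 3 comparisons, which share arrays of the same groups. Between 48 h and 72 h, 0.0947% of all genes passed, and 7 collagens had an unadjusted p under 0.05 (14% of all genes did), all with a lower effect at 72 h. The largest were Col3a1 at -1.21 ± 0.33 (SE, limma adjusted p = 0.122), Col1a1 at -0.53 ± 0.13 (limma adjusted p = 0.0874) and Col20a1 at -0.46 ± 0.12 (limma adjusted p = 0.117). Those 3 passed when only the brighter genes were tested (adjusted p = 0.0493, 0.0258 and 0.0401). Between 24 h and 72 h, 0.496% of all genes passed and 3 collagens had an unadjusted p under 0.05, where 14.3% of all genes did (Col3a1, Col5a1 and Col6a2). Between 24 h and 48 h no gene of the table passed, and 5 collagens had an unadjusted p under 0.05, where 7.67% of all genes did (Col1a1, Col5a3, Col4a6, Col7a1 and Col20a1). For Col4a1 the effect at 48 h differed from that at 24 h by -0.32 (95% interval from -0.71 to 0.08, limma adjusted p = 0.742).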

How the data were processed

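RNA of 18 samples was measured on Affymetrix arrays, 1 array per sample. The deposited values are log2 signals, which per the submitters' processing notes the authors made by RMA with Expression Console 1.3. No source used here names a genome build for the array values, and detection values were not used. The promoter windows were on GRCm38.p6. RMA makes the arrays' distributions nearly equal (array medians 5.367 to 5.462), so a shift of all genes would be lost, and arrays give no read depth: their number limits the precision. Of 41345 probe sets, 23521 had 1 gene symbol in the platform annotation, 1814 had several and 16010 none. Probe sets with 1 symbol were used, the brightest per gene. limma 3.58.1 fitted 1 mean per group over all 18 arrays with eBayes, two-sided, with Benjamini-Hochberg adjustment over 22180 genes per comparison and a threshold of 0.05. The fit was tested on simulated data. Genes were named where they passed, had the smallest p of their class, or were the brightest or dimmest of it; Col4a1, Col4a3, Col4a4, Col5a2, Col8a1, Col19a1, Col1a2 and the genes whose arrays did not overlap or that carried a difference between effects were named after their values were seen. The members and lists were chosen with earlier results of these data known. Alternatives were cyclic loess, the mean of probe sets, a filter at the median signal, all probe sets tested, array weights, a replicate block, a trended and robust prior, the groups of a comparison alone, and leaving out each array.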

Additional observations from a re-analysis of the deposited data

How the results depend on the processing

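Counts of collagens passing moved with the processing as follows. At 24 h the count of 0 became 1 (Col4a2) with cyclic loess, with the filter at the median signal and with the trended, robust prior. At 48 h the count of 3 became 0 when only the 6 arrays of that time were fitted. With all probe sets tested, the control step from 24 h to 48 h went from 5 to 3 and that from 48 h to 72 h from 8 to 5. The median filter, which leaves 17 of the 44 collagens to test, took the 24 h to 72 h course from 11 to 7 in controls and from 12 to 6 with thalidomide, and the difference between the effects at 48 h and 72 h from 0 to 3. The highest counts under the settings that kept all arrays were 4 at 48 h, 7 and 10 in the control steps, 13 over the control course and 12 over the thalidomide course. Leaving out each array gave 0 to 0 at 24 h, 0 to 3 at 48 h, 0 to 1 at 72 h, 2 to 5 and 4 to 7 in the control steps, 8 to 13 over the whole control course, 7 to 13 over the thalidomide course and 0 to 0 in the 3 differences between effects. No called difference changed sign under these settings. Types VII, XV and XVIII were also counted with the basement membrane collagens. That took the class from 0 to 1 called at 48 h, from 2 to 3 over the control course and from 4 to 5 over the thalidomide course. At 24 h and 72 h of thalidomide it stayed at 0.

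With the replicate number as a block, the counts were 0, 3 and 0 for thalidomide at 24, 48 and 72 h, 6 and 9 in the control steps, 12 in each 24 h to 72 h course and 0 in each difference between effects. The arrays share only a number: correlations between the deviations of same-numbered arrays ran from -0.14 to 0.118. Signal over background was not used here, and 27 of the 44 collagens had a mean signal below the median gene.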
